A study of Mus musculus with 81 samples.

Results

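Of 81 single cells from the embryonic mouse pancreas, 6 held the transcript of the epithelial adhesion molecule Epcam with the endocrine genes Chga and Neurog3 below threshold, and 62 were stromal. These 68 cells are compared here, and the 6 Epcam-positive cells are described cell by cell. The embryos were wild-type CD1 (an outbred mouse strain) at E13.5, 13.5 days of gestation. Their pancreata were dissociated with trypsin, each library was made from 1 captured cell, no treatment or sort is named, and all 68 cells share these conditions. The values are RPKM, reads scaled to the transcript's length in kilobases and to the total of the cell. A cell was taken as Epcam-positive when Epcam reached 10 RPKM while Chga, a protein of endocrine granules, and Neurog3, the transcription factor of endocrine progenitors, were each below 10. A cell was taken as stromal when the fibrillar collagen gene Col3a1 reached 10 RPKM and Epcam, Chga, the leukocyte gene Tyrobp and the endothelial gene Emcn were each below 10, with the shallow cells C3, C43, C61 and C94 left out. The Epcam-positive cells made up 7.41% of the 81 cells (exact Clopper-Pearson 95% interval 2.77 to 15.4%) and the stromal cells 76.5% (65.8 to 85.2%), and these intervals cover counting error only. The other 13 cells belong to neither class.

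The members were chosen by their measured levels of Epcam, Chga, Neurog3, Col3a1, Tyrobp and Emcn, so these are given as a description. Epcam was 276 RPKM in C82, 47.8 in C47, 115 in C95, 111 in C43, 51.6 in C13 and 13.3 in C29. The lowest member, C29, stood at 13.3 RPKM, and the next cell below the threshold, the stromal cell C46, at 0.630. A further 3 cells held Epcam with an endocrine transcript and are not members: C24 with Epcam at 72.2 and Chga at 107 RPKM, C56 with 12.3 and 40.7, and C91 with Epcam at 27.6 and Neurog3 at 258. On the stromal side, the member of lowest Col3a1 was C88 at 10.4 RPKM and the cell just outside was C45 at 0.691. The labels name no animal, so the 68 cells are 1 sample. No test between the classes was made, every SD is a spread over cells, and "higher" and "lower" describe these cells only.

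At this stage the pancreatic epithelium is a branching tree within a mesenchyme. Its tips hold multipotent and then acinar progenitors, known for the digestive enzyme gene Cpa1 and the transcription factor Ptf1a. Its trunk holds progenitors of duct and endocrine cells, known for Sox9, Nkx6-1 and the secreted phosphoprotein Spp1. Epithelial cells are joined by E-cadherin (Cdh1) and claudins and carry the keratins Krt8 and Krt18, whereas stromal cells secrete fibrillar collagens and respond to platelet-derived growth factor.

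The steps between low RPKM values gave the approximate depth of each cell in M (mega) reads, which was between 1.64 and 4.89 M in the stromal cells with a median of 3.51 M. Among the Epcam-positive cells it was 4.54 M in C82, 4.59 M in C47, 4.49 M in C95, 3.87 M in C29 and 2.87 M in C13. C43 stood apart with 0.417 M reads. For a 1 kb transcript, 1 read of C43 equals 2.40 RPKM, so its low values rest on single reads. Genes at 1 RPKM numbered 4669 in C82, 4668 in C47, 4852 in C95, 5209 in C43, 2673 in C13 and 4762 in C29, against 2353 to 5110 in the stromal cells with a median of 4035.5.

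The label of epithelial cell was checked against Cdh1, Krt8, Cldn6, Spp1 and Sox9, with Epcam counted beside them. Epcam was fixed by the rule in both classes, so it is no check. C82, C47, C95 and C43 held all 6 of these genes at 10 RPKM. C13 held 2 of them, Epcam and Krt8, and C29 held Epcam only. No stromal cell held 2 or more, and 52 of 62 held none.

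Cdh1, which encodes E-cadherin (mm9 chr8:109127268-109194146), was 119 RPKM in C82, 43.2 in C47, 70.9 in C95, 58.3 in C43, 0 in C13 and 0 in C29. It was below 1 RPKM in each of the 62 stromal cells, with a highest value of 0.0931, and 0 of 62 cells, taken as fewer than 3, allows a share of up to 4.84%. The values of Cdh1 therefore divided the Epcam-positive cells into 4 with at least 43.2 RPKM and 2 with 0. Cldn6, a claudin of embryonic epithelia (mm9 chr17:23816332-23819414), was 115 RPKM in C82, 116 in C47, 77.03 in C95, 12.7 in C43, 0 in C13 and 0 in C29, and its highest stromal value was 0.251. Spp1 (mm9 chr5:104864130-104870072) was 45.3 RPKM in C82, 502 in C47, 211 in C95, 209.6 in C43, 0 in C13 and 0.178 in C29, against at most 0.289 RPKM in the stromal cells. The same 4 cells were thus high for all 3 genes, with no overlap with the stroma.

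Krt8, an intermediate filament protein of simple epithelia (mm9 chr15:101827142-101834773), was 10.6 RPKM in C82, 66.1 in C47, 20.2 in C95, 343 in C43, 131 in C13 and 0 in C29. One stromal cell, C21, held it at 7.64 RPKM, and the other 61 were below 1. Sox9, a transcription factor of pancreatic progenitors (mm9 chr11:112643524-112649071), was 307 RPKM in C82, 200.5 in C47, 53.7 in C95, 86.2 in C43, 0 in C13 and 0.0617 in C29. In the stroma Sox9 ran from 0 to 158 RPKM with a median of 0.0751 and reached 1 RPKM in 22 of 62 cells (35.5%, exact interval 23.7 to 48.7%), so it overlapped between the classes. Because C13 and C29 go against the label on Cdh1, Cldn6, Spp1 and Sox9, they are called Epcam-positive cells throughout, and results are also given for the 4 Cdh1-positive cells alone. This grouping rests on marker genes. Over 9231 genes, the mean correlation (r) of C29 was 0.425 with the Cdh1-positive cells, 0.363 with C13 and 0.392 with the stromal cells. That of C13 was 0.345 with the Cdh1-positive cells and 0.324 with the stromal cells. By this measure C29 was closer to the Cdh1-positive cells than to C13.

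**Figure D1:**
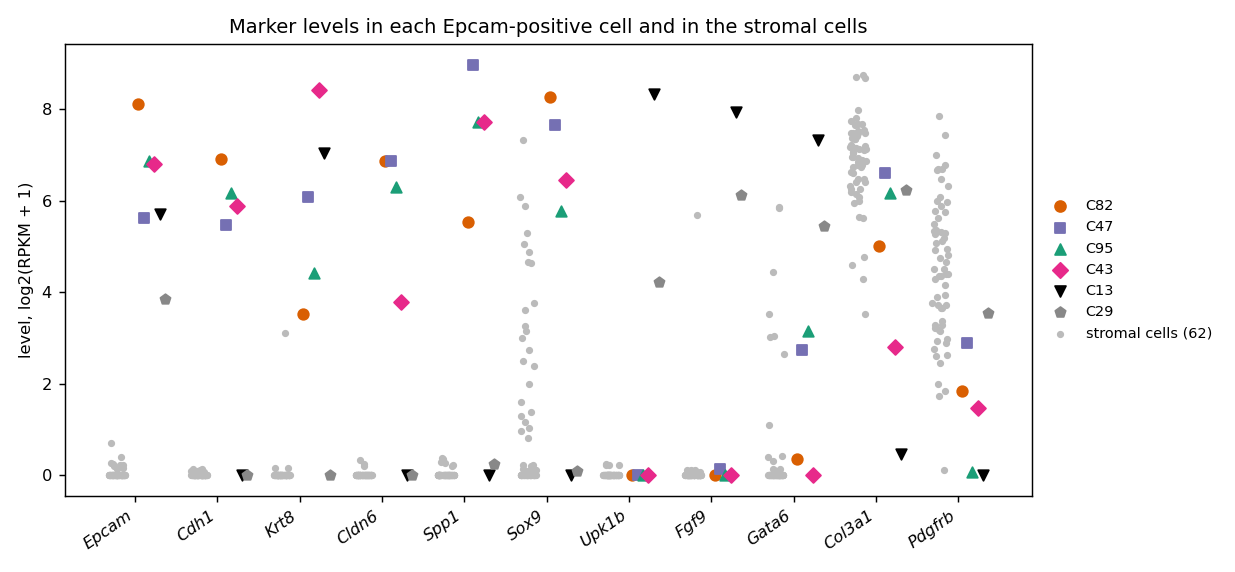
Level of 11 genes on the log2(RPKM + 1) scale in each of the 6 Epcam-positive cells (coloured symbols) and the 62 stromal cells (grey points, spread sideways for legibility). C82, C47, C95 and C43 hold Cdh1, Cldn6, Spp1 and Sox9, while C13 and C29 are at or near 0 for these and hold Upk1b, Fgf9 and Gata6.

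C82 was the only Epcam-positive cell with digestive enzyme transcripts at 1 RPKM. Cpa1, a carboxypeptidase of tip and acinar cells, was 804 RPKM in C82, 0.556 in C95 and 0 in the other 4. The lipase gene Cel was 6.70 RPKM in C82 alone. Cpa1 also occurred in stromal cells, at 1 RPKM in 10 of 62 with a highest value of 340.4. Ptf1a was listed at 0 in every member. Nr5a2, a nuclear receptor of acinar cells, was 7.39 RPKM in C82 and 4.89 in C95.

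C82 held these tip genes together with trunk genes. It had the highest Sox9 of the 6 cells, and it held Foxa2, a pioneer factor of endoderm, at 21.9 RPKM, Hhex, a homeodomain factor of the ventral foregut, at 21.3, and Nkx6-1 at 9.79. Of 25 trunk and progenitor genes in the table, 7 were at 10 RPKM in C82, against 0 to 6 in the stromal cells with a median of 3. Of 34 duct genes, 8 were, among them Wfdc15b, a whey acidic protein inhibitor, at 300.1, Ambp, the precursor of a protease inhibitor, at 195 and Bicc1, an RNA-binding protein linked to ductal cysts, at 54.01. Serpina6, which encodes the corticosteroid-binding globulin, was 904 RPKM in C82 and 63.7 in C95, with a highest stromal value of 0.633.

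C82 also held 4 of 24 liver and bile duct genes at 10 RPKM, namely Afp (alpha-fetoprotein) at 14.1, Apom (an apolipoprotein) at 63.9, Hhex, and Dlk1, a Notch-like surface protein, at 26.8. The genes by which C82 exceeded every other Epcam-positive and stromal cell the most were Tmem116 at 262 RPKM, the Ras-association gene Rassf6 at 86.97, the kinase gene Ripk4 at 79.01, the transcriptional repressor Bhlhe40 at 119.7, the sulfate-donor synthase Papss2 at 73.8 and the surface serine protease Hpn at 61.3. C82 held 1 leukocyte gene at 10 RPKM, Fcer1g at 39.5, while the defining leukocyte marker Tyrobp was 0.385.

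C47 reached the most duct genes, 16 of 34, where the stromal cells reached 1 to 6. It held 5 trunk genes, within the stromal range, and the highest Spp1 of all 6 cells. C47 also held Cldn10, a paracellular channel claudin, at 169 RPKM, Bicc1 at 112, the kinesin gene Kif12 at 29.4, the polycystin gene Pkd1 at 22.3 and the apical mucin Muc1 at 10.8. Bicc1 reached 98.4 RPKM in the stroma. The difference of Pkd1 between the classes ran from -0.57 to 0.68 log2 units over alternative settings of the processing. Esrp1, a splicing factor of epithelia, was 49.2 in C47 and 35.1 in C43.

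No tip enzyme was found in C47, but Myc, a transcription factor of growing progenitors and one of the listed tip genes, was highest of the 6 in C47, ahead of 46.7 RPKM in C43, against a stromal median of 0.765 and a stromal highest value of 169. Its liver-type genes were Afp at 67.5 RPKM and Hnf4a, a hepatocyte nuclear factor, at 7.90. The genes leading in C47 were Pdgfd, a ligand of the platelet-derived growth factor receptor beta, at 129 RPKM, the glutathione transferase Gstt3 at 105, the glycosyltransferase Galnt12 at 47.8, the transporter gene Slc7a4 at 49.5, Fcgbp, a protein of mucus, at 31.1 and the microtubule adaptor Hook1 at 80.8. Beside these, C47 held 12 of 30 mesenchyme genes at 10 RPKM, equal to the stromal median, among them Cdh11 at 175, the pericyte gene Rgs5 at 88.98 and Col1a2 at 101. Whether this cell library also held RNA of a stromal cell was not tested.

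C95 held 11 duct genes and 6 trunk genes at 10 RPKM, the latter equal to the highest stromal count, and no tip gene at that level. Foxa2 was highest here, 21.9 RPKM in C82, 0 in C47, 101 in C95, 7.82 in C43, 0 in C13 and 0 in C29, and its highest stromal value was 0.206. Tm4sf4, a tetraspanin-like membrane protein of duct and endocrine cells, was 0 RPKM in C82, 50.7 in C47, 149 in C95, 106 in C43, 0 in C13 and 0 in C29. It was present in 3 of the 4 Cdh1-positive cells and at most 0.302 in the stroma. C95 shared Cldn10 with C47, at 137 RPKM, and held Ehf, an Ets factor of epithelia, at 43.9, with 0.594 RPKM in C82 and 0 in the other 4.

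Ttr, which encodes the thyroid hormone carrier transthyretin, was 82.2 RPKM in C95, 388 in C43 and 0 in the other 4. The genes leading in C95 were the transcripts Ncrna00086 at 121 RPKM and A830007P12Rik at 81.6, the monooxygenase Fmo1 at 55.3, the epithelial glutathione peroxidase Gpx2 at 183, the acyltransferase Mboat4, which modifies ghrelin, at 32.5, and Ppp4r4, a phosphatase subunit, at 118. Ghrl, which encodes ghrelin itself, was listed at 0 in C95. Of 32 endocrine genes, 2 were at 10 RPKM in C95, Isl1 at 17.6 and Cpe at 18.3, and both were also found at 10 RPKM in stromal cells, Isl1 in 11 and Cpe in 9.

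C43 was the only cell of the 68 with Pdx1, the transcription factor of the early pancreatic bud, at 86.9 RPKM. Pdx1 was 0 in the other 5 Epcam-positive cells and in all 62 stromal cells. Nkx6-1 was 9.79 RPKM in C82, 1.90 in C47, 1.71 in C95, 49.1 in C43, 0 in C13 and 0 in C29, with a highest stromal value of 0.118. C43 held 9 trunk genes, the most of the 6 cells, 13 duct genes and 13 of 24 pan-epithelial genes. Its keratins were the highest of the 6, with Krt18 at 893 RPKM, Krt8 at 343 and Krt7 at 291.

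With its shallow depth, a value of 0 in C43 limits little, and Muc1, at 4.27 RPKM, may rest on a few reads. The genes leading in C43 included Nr0b2, a nuclear receptor known from bile acid signalling, at 366 RPKM, Ttc36 at 302, the matrix protease Mmp9 at 114, Fam101a at 118 and the adhesion protein Ninj1 at 473. Of the mesenchyme list, 7 genes were at 10 RPKM in C43, including Barx1, a homeobox gene of foregut mesenchyme, at 269, above the highest stromal cell at 111. Its Col3a1 was 5.99 RPKM. The stromal members were chosen for Col3a1 at 10 RPKM, so that this is below all of them follows from the rule.

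**Figure D2:**
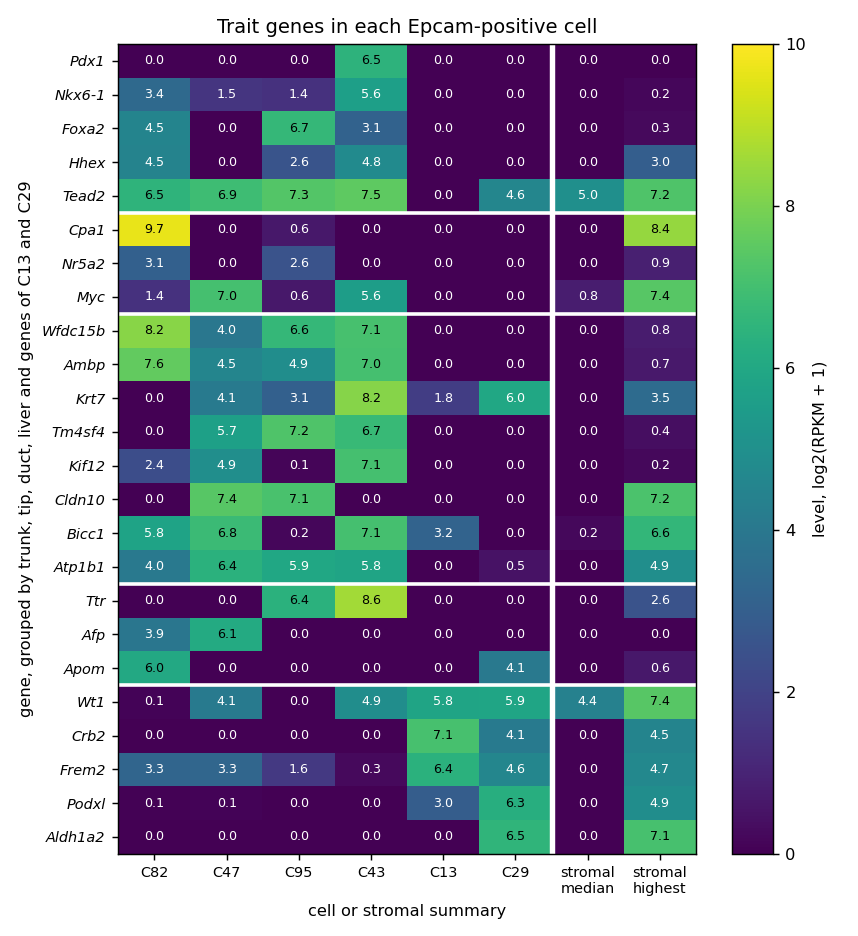
Level on the log2(RPKM + 1) scale of trait genes in each Epcam-positive cell, with the stromal median and the highest stromal cell at the right. Rows are grouped, from the top, as trunk, tip, duct and liver genes and genes held by C13 or C29. Cpa1 is high in C82 only among the 6, Pdx1 in C43 only, and C13 and C29 lack nearly all trunk and duct genes shown.

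C13 held 2 of 34 duct genes and 2 of 25 trunk genes at 10 RPKM, and no tip or liver gene. Both duct genes, Ezr, a linker of membrane and actin that is found in many polarised cells, and the nuclear factor Nfib, are not limited to ducts. Gata6, a transcription factor of pancreas and of coelomic tissues, was 0.269 RPKM in C82, 5.62 in C47, 7.84 in C95, 0 in C43, 158 in C13 and 42.8 in C29. In the stroma it reached 10 RPKM in 4 of 62 cells. Col3a1 was 0.367 RPKM in C13, so this cell met neither the collagen criterion nor most epithelial markers.

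Upk1b, a uroplakin of urothelium and mesothelium, was 0 RPKM in C82, 0 in C47, 0 in C95, 0 in C43, 321 in C13 and 17.7 in C29. No stromal cell reached 1 RPKM, and the highest stood at 0.181. Fgf9, a growth factor made by epithelia and mesothelium, was 0 RPKM in C82, 0.103 in C47, 0 in C95, 0 in C43, 243 in C13 and 68.7 in C29, and of the stromal cells 1 reached 1 RPKM, at 50.1. These genes were thus held by C13 and C29 and absent from the 4 Cdh1-positive cells or nearly so. Crb2, a Crumbs polarity protein, had the same pattern at 0 RPKM in C82, 0 in C47, 0 in C95, 0 in C43, 135 in C13 and 16.1 in C29, although 8 stromal cells reached 1 RPKM.

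The genes leading in C13 were the calcium-binding protein gene Caps2 at 181 RPKM, Hsf2bp at 198, the lipid transporter Mfsd2a at 109, the nucleosome assembly gene Nap1l2 at 95.7, the cilium-associated Ubxn10 at 68.2 and the dynein adaptor Bicd1 at 44.6. Frem2, a basement membrane protein of embryonic epithelia, was 8.65 RPKM in C82, 8.76 in C47, 2.13 in C95, 0.192 in C43, 81.6 in C13 and 23.3 in C29. Its stromal values ran from 0 to 24.4 RPKM with a median of 0, and 4 stromal cells were at 10 RPKM. C13 and C29 were highest for Frem2, and C82 and C47 held it at a lower level.

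C29 held 7 duct genes at 10 RPKM, but none of them was Spp1, Sox9, Ambp, Wfdc15b or Tm4sf4. They were Krt7, Wfdc2, Ezr, Nfib, the polycystin gene Pkd2, the bicarbonate transporter Slc4a4 at 57.2 RPKM and its scaffold Slc9a3r1 at 100.4. C29 held 5 of 10 mesothelial genes, Upk1b, Wt1, Aldh1a2, Rspo1 and Lrrn4, and C13 held 3, Upk1b, Wt1 and Gpm6a. The stromal cells held 0 to 4 of them with a median of 1, and 2 stromal cells, C37 and C41, held 3 and 4 with Epcam at 0. Wt1, a transcription factor of mesothelium and of pancreatic mesenchyme, was 0.0696 RPKM in C82, 15.9 in C47, 0 in C95, 29.3 in C43, 56.3 in C13 and 58.4 in C29 and reached 10 RPKM in 39 of 62 stromal cells.

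Aldh1a2, the enzyme that makes retinoic acid, was 92.1 RPKM in C29 and 0 in the other 5, and 5 stromal cells held it at 10 RPKM. C29 stood out for 8 of 17 retinoic acid genes at 10 RPKM, where the other 5 held 1 to 4 and the stromal cells 0 to 6. Crabp2, which carries retinoic acid to its receptor, was 231 RPKM in C29 with a highest stromal value of 30.3. The genes leading in C29 were the cytokine Il33 at 281 RPKM, Pnmal1 at 165, the angiogenic factor Pgf at 152, the growth factor binding protein Fgfbp1 at 155, the proton pump subunit Atp6v0e2 at 141 and the vesicle fusion protein Snap25 at 103. C29 also held stromal genes, with Col3a1 at 73.7 RPKM, Col1a1 at 45.7, and the proteoglycan Dcn at 195.

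**Figure D3:**
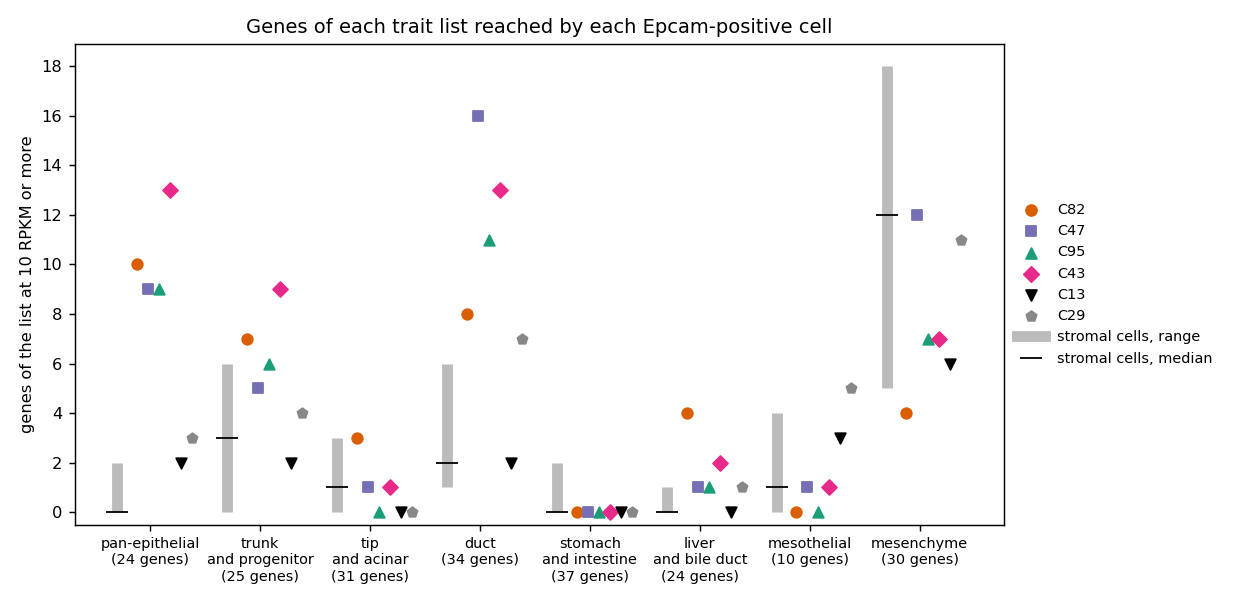
Number of genes of 8 trait lists at 10 RPKM or more in each Epcam-positive cell, with the range (grey bar) and median (black line) of the 62 stromal cells. The duct list gives 16 genes in C47 and 2 in C13, the stomach and intestine list gives 0 in all 6 cells, and the mesothelial list is highest in C29.

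Traits of other gut organs were few. Of 37 stomach and intestine genes, none was at 10 RPKM in any Epcam-positive cell. Sox2 and Cdx2, the transcription factors that mark stomach and intestine, were 0 in all 6, as was the stomach claudin Cldn18. The liver genes Alb and Apoa1 were also 0 in all 6, while Afp, Ttr, Apom or Hhex appeared in the 4 Cdh1-positive cells and Apom in C29, at 15.6 RPKM. Krt19, which is on both the pan-epithelial and the duct list, and the duct genes Cftr and Car2 were 0 in all 6 cells.

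Few markers of blood and vessel cells were found. Pecam1, Cdh5 and Emcn, which define endothelium, and Tyrobp and Ptprc, which define leukocytes, were below 1 RPKM in all 6 cells. The endothelial list of 14 genes gave 0 in C82, 1 in C47, 0 in C95, 0 in C43, 0 in C13 and 0 in C29 at 10 RPKM, and the gene in C47 was Eng at 25.5 RPKM. The leukocyte list of 13 genes gave 1 in C82, 0 in C47, 0 in C95, 0 in C43, 0 in C13 and 1 in C29, and the gene in C29 was Aif1 at 15.4. No erythroid gene was at 10 RPKM. The mesenchyme list of 30 genes, which includes the widely expressed Vim, gave 4 in C82, 12 in C47, 7 in C95, 7 in C43, 6 in C13 and 11 in C29, against the stromal cells' 5 to 18 with a median of 12.

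Across all genes, 13237 were above 0 in at least 3 of the 81 cells and were compared on the log2(RPKM + 1) scale. The mean of the 6 Epcam-positive cells was at least 1 log2 unit higher for 2011 genes (15.2% of those compared) and at least 1 unit lower for 757 (5.72%). With C13 and C29 left out, 2783 genes were higher (21%) and 854 lower (6.45%). The median difference of all genes was -0.0041 with 6 cells and -0.0028 with 4. These counts have no test behind them, and with 6 cells a high value in 1 or 2 of them can carry a gene past the line: of the 2011 higher genes, 824 were at 10 RPKM in at most 2 of the 6 cells and 735 in at least 4. Of the 757 lower genes, 521 were below 1 RPKM in at least 4 of the 6 cells.

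Each Cdh1-positive cell held more duct and epithelial genes than any stromal cell, and the lists show this in the mean as well. Of 17 measured trunk and progenitor genes 10 were higher and 2, Jag1 and Hes1, lower, with a median difference of 1.11, 1.60 with the 4 Cdh1-positive cells and 0.74 without C95. Of 23 duct genes 14 were higher and 1, Nfib, lower, with a median of 2.22. The duct median was 1.41 without C47, 0.88 as a difference of medians, 0.69 with no filter on low values and 0.93 at a pseudocount of 10. Ambp was 195 RPKM in C82, 22.4 in C47, 29.04 in C95, 131 in C43, 0 in C13 and 0 in C29, and its highest stromal value was 0.598. Atp1b1, a subunit of the sodium pump, was 15.6 RPKM in C82, 82.8 in C47, 60.4 in C95, 55.99 in C43, 0 in C13 and 0.420 in C29, with a highest stromal value of 29.4. These duct genes were high in the Cdh1-positive cells and near 0 in C13 and C29. Of 7 tip and acinar genes 1 was higher, a share near the 15.2% of all genes, and none lower. Their median was 0.59, which became -0.09 without C82, -0.01 without C47 and -0.01 without C43.

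Few genes separated all 6 cells from all stromal cells. Epcam, which the rule used, was the only one in which every Epcam-positive cell exceeded every stromal cell (0.00755% of genes). Besides Epcam, Col18a1, a basement membrane collagen, was the only gene at 1 RPKM in all 6 cells and in at most 10% of stromal cells (0.0151%). Col18a1 was 47.9 RPKM in C82, 2.50 in C47, 18.3 in C95, 8.04 in C43, 30.04 in C13 and 66.04 in C29, and 3 stromal cells reached 1 RPKM, with 163 in the highest. It was high in both C13 and C29 as well as in C82, lowest in C47, and overlapped with the stroma in that 1 cell of highest value.

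Setting C13 and C29 aside, 17 genes were higher in every Cdh1-positive cell than in every stromal cell (0.128% of genes, with Epcam and Cdh1 fixed by the choice of cells). They included Cldn3, Cldn6, Krt8, Spp1, Nkx6-1, Ambp, Wfdc15b, the membrane protease St14 and the chemokine receptor Cxcr4. Habp2, a circulating protease, was 24.96 RPKM in C82, 16.6 in C47, 72.7 in C95, 13.8 in C43, 0 in C13 and 0 in C29, and it was 0 in all 62 stromal cells. Mt1, a metal-binding metallothionein, was 13.6 RPKM in C82, 21.7 in C47, 62.8 in C95, 347 in C43, 0 in C13 and 0 in C29, with a highest stromal value of 0.423. Mgll, the lipase of monoacylglycerols, was 0.366 RPKM in C82, 13.7 in C47, 10.2 in C95, 16.2 in C43, 0 in C13 and 0.0722 in C29, also 0 throughout the stroma. In C13 and C29 these 3 genes were at or near 0. Some of the 17 genes rest on a value below 1 RPKM in a Cdh1-positive cell, such as Mgll in C82. A stricter cut, 10 RPKM in all 4 cells and 1 RPKM in at most 10% of stromal cells, left 11 genes (0.0831%). Epcam and Cdh1 are among the 11.

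**Figure D4:**
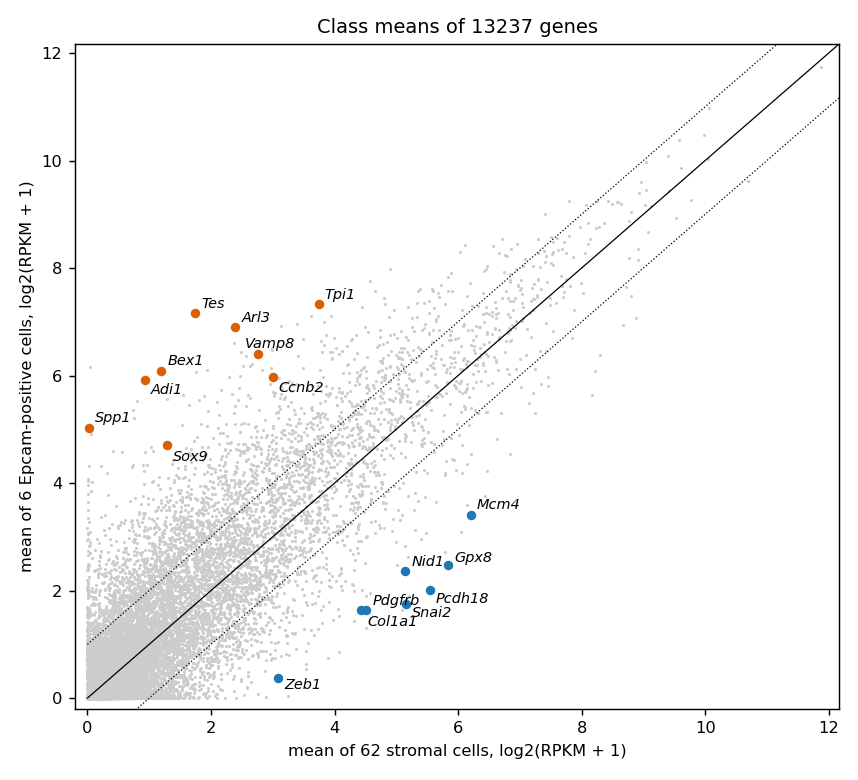
Mean of the 62 stromal cells (horizontal) against the mean of the 6 Epcam-positive cells (vertical), both on the log2(RPKM + 1) scale, for 13237 genes. The solid line marks equal means and the dotted lines a difference of 1 log2 unit. Named genes higher in the Epcam-positive cells are orange and lower ones blue, and of those named, Spp1, Bex1, Adi1 and Tes lie farthest above and Snai2, Pcdh18 and Gpx8 among the farthest below.

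Among genes above 0 in at least 3 of the 6 cells, the largest differences after Epcam were those of Tes, Spp1, Adi1, Bex1, Krt8, Mgst1, Parm1, Arl3 and 1810032O08Rik. Tes, which encodes the focal adhesion protein testin, was 89.99 RPKM in C82, 157 in C47, 98.1 in C95, 255 in C43, 191 in C13 and 122 in C29. All 6 cells were high for it, and the stroma ran from 0 to 395 RPKM with a median of 0.151, with 15 of 62 cells at 10 RPKM. On the log2 scale Tes averaged 7.16 ± 0.58 (SD, n = 6 cells) against 1.75 ± 2.43 (SD, n = 62), a difference of 5.42. Arl3, a small GTPase of the primary cilium, was 96.2 RPKM in C82, 302 in C47, 128 in C95, 376 in C43, 92.2 in C13 and 20.7 in C29, a difference of 4.51 from stromal values that ran from 0 to 208 RPKM with a median of 0.344.

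Bex1 and Bex4 are small X-linked genes first known from brain. Bex1 was 1241 RPKM in C82, 326 in C47, 97.6 in C95, 1147 in C43, 0 in C13 and 1.17 in C29, and its difference was 4.90 with all 6 cells and 7.66 with the 4 Cdh1-positive cells. It was high in those 4 cells and low in C13 and C29, and the stroma overlapped it, with 8 of 62 cells at 10 RPKM. Bex4 was 441 RPKM in C82, 54.7 in C47, 201 in C95, 131 in C43, 0 in C13 and 132 in C29, so C29 was high and only C13 lacked it. Mgst1, a membrane glutathione transferase, had that pattern too, at 74.3 RPKM in C82, 83.9 in C47, 127 in C95, 139 in C43, 0 in C13 and 83.5 in C29, with 8 stromal cells at 10 RPKM.

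Others of this group were as high in C13 as in the Cdh1-positive cells. Adi1, an enzyme of the methionine salvage pathway, was 119.8 RPKM in C82, 143 in C47, 23.98 in C95, 4.26 in C43, 199 in C13 and 103 in C29, with 9 stromal cells at 10 RPKM. Ptprf, a receptor phosphatase of cell contacts, was 62.5 RPKM in C82, 146 in C47, 30.8 in C95, 109.6 in C43, 206 in C13 and 14.3 in C29. Sucla2, a subunit of the citric acid cycle enzyme succinyl-CoA ligase, was 58.7 RPKM in C82, 70.9 in C47, 189 in C95, 16.9 in C43, 395 in C13 and 149.8 in C29. The remaining genes of the 20 with the largest difference were Phkg2, Nme3, Hrsp12, Wfdc15b, Cdh1 and Wnt7b, with differences between 4.04 and 4.30.

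Genes lower in the Epcam-positive cells included adhesion, matrix and growth factor receptor genes of mesenchyme. Pcdh18, a protocadherin, had the largest difference, -3.53. It was 1.47 RPKM in C82, 13.7 in C47, 3.78 in C95, 0.459 in C43, 0.0649 in C13 and 14.8 in C29, and the stroma ran from 0.196 to 253 RPKM with a median of 60.01. Pdgfrb, the receptor for platelet-derived growth factor on stromal cells and pericytes, was 2.56 RPKM in C82, 6.37 in C47, 0.0408 in C95, 1.76 in C43, 0 in C13 and 10.6 in C29, against stromal values that ran from 0.0862 to 228 RPKM with a median of 21.7. C29 was the one Epcam-positive cell with Pdgfrb at 10 RPKM, and the classes overlapped for both genes.

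Gpx8, a peroxidase of the endoplasmic reticulum, was 1.06 RPKM in C82, 0.212 in C47, 0.429 in C95, 18.8 in C43, 245 in C13 and 0.749 in C29, so that 5 cells were below 20 RPKM while C13 exceeded the stromal median of 102. Ppic, a cyclophilin, was 0.671 RPKM in C82, 358 in C47, 0 in C95, 0 in C43, 0.526 in C13 and 0 in C29, with C47 alone above the stromal median of 70.1. Pgm5, a phosphoglucomutase-like protein of adherens junctions in muscle, was at most 0.0420 RPKM in the 6 cells and reached 1 RPKM in 49 of 62 stromal cells. In all, 11 genes were below 1 RPKM in every Epcam-positive cell and at 1 RPKM in at least 50% of stromal cells (0.0831% of genes), among them Pgm5 and Vcan, the proteoglycan versican. The other genes of the 20 were Dctn5, Serinc1, E030010A14Rik, Tipin, Gjc1, Srsf6, Lmo4, Rgs5, Gpc6, Sulf2, 6330403K07Rik, Col1a1, Mcm4 and Nid1, with differences between -3.31 and -2.78.

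Genes of epithelial identity and junctions were described by lists. Every list count below stands beside all genes, of which 15.2% were higher and 5.72% lower with 6 cells. With the 4 Cdh1-positive cells these shares were 21% and 6.45%. Of 17 measured pan-epithelial genes, 14 were higher by 1 log2 unit and 0 lower, with a median difference of 2.95 against -0.0041 over all genes. Epcam is on this list and was part of the rule. With the 4 Cdh1-positive cells, which Cdh1 of the same list set apart, the median was 4.22. Of 28 adhesion and junction genes, 11 were higher and 1, Cdh11, lower, with a median of 0.63.

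Junction genes divided the Epcam-positive cells in different ways. Cldn3 and Cldn7, claudins of tight junctions, were absent from C13 and C29, with Cldn7 at 94.03 RPKM in C82, 0 in C47, 54.1 in C95, 61.7 in C43, 0 in C13 and 0 in C29. Cgn, the tight junction plaque protein cingulin, was 7.53 RPKM in C82, 30.8 in C47, 18.3 in C95, 23.1 in C43, 56.4 in C13 and 0.202 in C29. It was highest in C13, and its highest stromal value was 7.99 RPKM. F11r, a junctional adhesion molecule, was 0.522 RPKM in C82, 0 in C47, 54.2 in C95, 3.83 in C43, 41.6 in C13 and 9.02 in C29, and Tjp1, the plaque protein ZO-1, was 8.10 RPKM in C82, 0.279 in C47, 30.3 in C95, 0.690 in C43, 122 in C13 and 9.68 in C29. C13 thus held Cgn, F11r and Tjp1 without Cdh1 or the claudins. Dsg2, a desmosomal cadherin, was 43.99 RPKM in C82, 157 in C47, 31.6 in C95, 9.97 in C43, 0.0586 in C13 and 0.0446 in C29, high in the 4 Cdh1-positive cells, with 4 stromal cells at 10 RPKM.

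The surface proteases and their inhibitors had a median of 1.29 over 12 genes, with 6 higher and 2 lower. St14 (matriptase), a membrane serine protease of epithelia, was 13.6 RPKM in C82, 28.4 in C47, 19.8 in C95, 13.6 in C43, 0 in C13 and 0 in C29. Its inhibitor Spint1 was 198 RPKM in C82, 163 in C47, 0 in C95, 106 in C43, 0 in C13 and 0.112 in C29, with a highest stromal value of 0.161. The pair was found together in C82, C47 and C43, and C95 held St14 with Spint1 at 0. The 2 lower genes were Serpine2 and the thrombin receptor F2r, with differences of -2.40 and -2.53.

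Polarity genes had a median of 0.66 over 25 genes, with 7 higher and 1 lower, but the median was 0.10 with the 4 Cdh1-positive cells and 0.44 without C29. Ezr (ezrin), which ties apical membrane to actin, was 11.99 RPKM in C82, 147 in C47, 0.786 in C95, 3.10 in C43, 178 in C13 and 77.8 in C29. Its highest values were in C13, C47 and C29, and 9 of 62 stromal cells held it at 10 RPKM. Podxl, an apical sialomucin, was 76.7 RPKM in C29, 6.79 in C13 and below 0.1 in the other 4.

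Of 12 measured genes for epithelial splicing and for epithelial to mesenchymal transition, 1, Esrp1, was higher and 4, Snai2, Zeb1, Zeb2 and Snai1, were lower, with a list median of -0.43. That median was -0.26 without C13, -0.026 as a difference of medians and -0.068 against the stromal cells sharing no library index with an Epcam-positive cell. Snai2, a zinc finger repressor, was 0.215 RPKM in C82, 77.3 in C47, 0 in C95, 0 in C43, 0.334 in C13 and 10.6 in C29. The stroma ran from 0 to 700.4 RPKM with a median of 72.96, so C47 lay at the stromal median and the other 5 cells were far below it. Zeb1, a repressor of Cdh1, was 0 RPKM in C82, 2.10 in C47, 0 in C95, 0.408 in C43, 0 in C13 and 0.0435 in C29, with 47 of 62 stromal cells at 1 RPKM and a stromal median of 7.98. Zeb2 was 0.0718 RPKM in C82, 0.586 in C47, 0 in C95, 1.31 in C43, 0.0374 in C13 and 27.8 in C29, and C29 alone exceeded the stromal median of 11.1. The Esrp factors splice Fgfr2, Ctnnd1 and Enah. The transcript rows of Ctnnd1 and of Enah differed in these files by a near-constant ratio. The 2 rows of Fgfr2 did not: they were 14.3 and 15.3 RPKM in C82, 3.21 and 4.42 in C43, and 0.197 and 0.587 at the stromal median. Rows of 1 gene share reads, so isoforms were not read from any of the 3 genes.

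The Snai and Zeb factors are known to bind the 6-letter E-box CAGGTG, read as CACCTG on the other strand. The windows of 250 bases upstream of the start of Epcam, Cldn6, Krt8 and Spp1 are shown because these 4 given markers have an entry in the promoter table, taken from RefSeq on build GRCm38.p6. They are written 5′ to 3′ on the strand of the gene with the E-box in capitals. Epcam lies on the plus strand at chr17:87635729-87635978, Cldn6 on the plus strand at chr17:23679115-23679364, Krt8 on the minus strand at chr15:102004343-102004592 and Spp1 on the plus strand at chr5:104434861-104435110, the first of its 2 listed starts.
Epcam: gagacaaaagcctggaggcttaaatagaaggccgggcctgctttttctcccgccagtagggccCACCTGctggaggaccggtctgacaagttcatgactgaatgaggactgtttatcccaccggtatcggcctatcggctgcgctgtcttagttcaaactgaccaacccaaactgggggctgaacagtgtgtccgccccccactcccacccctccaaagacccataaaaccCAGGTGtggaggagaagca
Cldn6: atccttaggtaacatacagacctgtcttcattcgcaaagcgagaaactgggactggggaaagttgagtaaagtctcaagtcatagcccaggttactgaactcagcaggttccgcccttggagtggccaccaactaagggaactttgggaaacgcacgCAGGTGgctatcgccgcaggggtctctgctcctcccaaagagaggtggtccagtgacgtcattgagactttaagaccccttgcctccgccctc
Krt8: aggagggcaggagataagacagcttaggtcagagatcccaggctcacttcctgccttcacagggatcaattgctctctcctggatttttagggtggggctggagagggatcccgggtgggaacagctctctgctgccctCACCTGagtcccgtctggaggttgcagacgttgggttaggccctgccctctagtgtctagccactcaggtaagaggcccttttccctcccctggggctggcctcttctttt
Spp1: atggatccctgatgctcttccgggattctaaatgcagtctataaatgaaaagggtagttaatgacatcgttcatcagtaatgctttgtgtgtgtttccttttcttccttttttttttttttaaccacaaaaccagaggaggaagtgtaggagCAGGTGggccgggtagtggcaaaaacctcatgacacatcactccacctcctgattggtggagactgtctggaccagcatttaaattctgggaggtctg
The Epcam window holds the motif once on each strand, and each of the other 3 windows shown holds it 1 time. The window of the second listed start of Spp1, which is not printed, holds it 0 times. Across all 32851 windows of this length in the table, 17.2% hold it on either strand. Of the 17 genes higher in every Cdh1-positive cell than in every stromal cell, 13 have an entry. Of these, 4 hold the motif in at least 1 window, namely these 4, against 19.4% of all genes with an entry. A match is a description of the letters and not a bound site.

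Of 34 interstitial matrix genes, 11 were lower and 2 higher, with a median of -0.50 that became -0.26 without C82. The list contains Col3a1, which the stromal rule used. Col1a1, the main chain of type I collagen, was 0.0457 RPKM in C82, 4.77 in C47, 0.608 in C95, 1.01 in C43, 0 in C13 and 45.7 in C29, against stromal values that ran from 1.98 to 158 RPKM with a median of 22.4. C29 alone exceeded the stromal median. Bgn, the proteoglycan biglycan, was 0.180 RPKM in C82, 0 in C47, 0 in C95, 21.95 in C43, 0 in C13 and 0 in C29, with C43 alone above the stromal median of 9.59.

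Collagen transcripts were nevertheless detected in Epcam-positive cells. Col3a1 was 31.02 RPKM in C82, 96.3 in C47, 70.2 in C95, 5.99 in C43, 0.367 in C13 and 73.7 in C29. Col1a2 was 8.26 RPKM in C82, 101 in C47, 27.6 in C95, 40.8 in C43, 37.8 in C13 and 86.9 in C29, against stromal values that ran from 3.97 to 448 RPKM with a median of 174. For comparison, 4 cells with Tyrobp at 10 RPKM held Col3a1 at 2.90 to 142 RPKM with a median of 39.8, and 2 cells with Emcn at 10 RPKM held it at 55.96 and 88.2. The Col3a1 values of C82, C47, C95 and C29 were thus within the range of these leukocyte and endothelial gene-bearing cells, and the source of the transcript in any of them was not tested.

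Of 23 basement membrane genes 3 were higher and 4 lower, with a median of -0.13, and the share higher was near the 15.2% of all genes. The higher ones were Col18a1, Frem2 and the laminin chain Lamc1, which was 3.55 RPKM in C82, 94.9 in C47, 13.3 in C95, 45.9 in C43, 0 in C13 and 21.3 in C29. Nid1, the laminin-binding nidogen, was lower at 0.394 RPKM in C82, 33.8 in C47, 24.1 in C95, 2.77 in C43, 0.279 in C13 and 2.14 in C29, against a stromal median of 54.2. Of 29 mesenchyme genes, 12 were lower and 3 higher with a median of -0.53, or -1.06 without C47. Col3a1, which the stromal rule used, is among the 12. The largest positive difference of the list was that of Barx1, 1.99.

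Among signalling genes, Wnt7b had the largest difference, 4.04. Wnt7b, a Wnt ligand of epithelia, was 33.7 RPKM in C82, 0.0629 in C47, 66.2 in C95, 124 in C43, 0 in C13 and 64.96 in C29. It was at most 0.176 RPKM in the 62 stromal cells, so 4 Epcam-positive cells, C29 included, held a Wnt ligand not detected at 1 RPKM in the stroma. Of 29 Wnt genes 3 were higher and 3 lower, with a median of 0.03, beside 15.2% higher and 5.72% lower over all genes. Sfrp1, a secreted Wnt inhibitor, was 155 RPKM in C82, 279.8 in C47, 0.351 in C95, 1.63 in C43, 175 in C13 and 139 in C29, and the stroma ran from 7.85 to 494 RPKM with a median of 104.

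Of 20 FGF genes 3 were higher, a share near the 15.2% of all genes, and 4 lower, with a median of -0.23. With the 4 Cdh1-positive cells 4 were higher and 1 lower, beside 21% higher and 6.45% lower over all genes. Fgfr2, the receptor through which mesenchymal Fgf10 acts on pancreatic epithelium, was 15.3 RPKM in C82, 17.02 in C47, 9.04 in C95, 4.42 in C43, 0.0702 in C13 and 0 in C29, with a stromal median of 0.587 and 26 stromal cells at 1 RPKM. Fgfr1, the receptor more common in mesenchyme, was 0.137 RPKM in C82, 66.2 in C47, 3.99 in C95, 73.3 in C43, 0.570 in C13 and 3.11 in C29, with a difference of -1.46 for 6 cells and -0.68 for 4. The feedback inhibitor Spry1 was below 10 RPKM in all 6 cells, with a difference of -1.91 and a stromal median of 5.81.

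Of 21 Notch genes 4 were higher and 2 lower, with a median of 0.07, beside 15.2% higher and 5.72% lower over all genes. The receptor Notch1 was 9.31 RPKM in C82, 22.9 in C47, 0.346 in C95, 13.8 in C43, 0 in C13 and 0.0536 in C29, and 3 stromal cells held it at 10 RPKM. Hes6, a bHLH factor that opposes Hes1, was 12 RPKM in C82, 79.2 in C47, 9.87 in C95, 5.33 in C43, 0 in C13 and 0 in C29, so all 4 Cdh1-positive cells held it and C13 and C29 did not. The ligand Jag1 was 54.8 RPKM in C82, 0.0784 in C47, 7.11 in C95, 3.46 in C43, 0.124 in C13 and 7.50 in C29, with a difference of -1.92 and a stromal median of 20.5. Hes1, the Notch target of pancreatic progenitors, was 51.6 RPKM in C82, 56.6 in C47, 0.914 in C95, 203 in C43, 0 in C13 and 37.5 in C29. All 6 cells lay within the stromal range of 0 to 305 RPKM, and its difference was -1.72 with 6 cells and -0.92 with 4.

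Hippo pathway genes had 7 higher and 2 lower of 20, with a median of 0.03 that became -0.03 when each cell was rescaled to the same sum. Yap1, the pathway's transcriptional coactivator, was 38.1 RPKM in C82, 24.8 in C47, 19.2 in C95, 28.3 in C43, 386 in C13 and 27.6 in C29, so all 6 cells held it, with a stromal median of 31.03. C13 alone exceeded the highest stromal cell, at 98.4. Tead2, the DNA-binding partner of Yap1 in embryonic progenitors, was 90.6 RPKM in C82, 118 in C47, 161 in C95, 182 in C43, 0 in C13 and 23.3 in C29. Its difference was 1.11 with 6 cells and 2.70 with 4, whereas its relative Tead1 differed by -1.29. Of 10 Hedgehog genes 1 was higher and 1 lower, with a median of 0.05, or -0.40 with the 4 Cdh1-positive cells. They were Smo, the signal transducer, with a difference of 1.57, and Gas1, a co-receptor, with -1.14. BMP and TGF-beta genes had 3 higher and 2 lower of 30 and a median of -0.09. Beside the Hippo, Hedgehog and BMP lists, 15.2% of all genes were higher and 5.72% lower.

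Of 46 oxidative phosphorylation genes 21 were higher and 1, Ndufa9, lower, with a median of 0.84, or 0.55 with each cell rescaled to the same sum. Uqcrfs1, the iron-sulfur subunit of complex III, was 126 RPKM in C82, 88.4 in C47, 63.2 in C95, 10.9 in C43, 57.7 in C13 and 31.7 in C29, against stromal values that ran from 0 to 153 RPKM with a median of 1.97. At 10 RPKM the list gave 42 in C82, 39 in C47, 40 in C95, 41 in C43, 30 in C13 and 35 in C29, and the stromal cells 24 to 40 with a median of 32.5. C82 and C43 exceeded the highest stromal count, and C13 was below the stromal median.

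Of 20 glycolysis genes 9 were higher and none lower, with a median of 0.80 that became 0.46 without C29. Tpi1, triose phosphate isomerase, was 111 RPKM in C82, 137 in C47, 126 in C95, 104 in C43, 559.9 in C13 and 145 in C29. Every Epcam-positive cell was above 100 RPKM, and the stroma ran from 0 to 195 RPKM with a median of 14.9. Glucose transporter Slc2a2, known from hepatocytes and pancreatic progenitors, had a difference of 1.29, at 5.56 RPKM in C82, 0 in C47, 13.7 in C95, 1.85 in C43, 0 in C13 and 0 in C29, with a highest stromal value of 11.9.

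Of 25 G2/M genes 16 were higher and none lower, with a median of 1.22 that became 1.97 without C13. At 10 RPKM the list gave 21 in C82, 9 in C47, 17 in C95, 15 in C43, 3 in C13 and 19 in C29, and the stromal cells 0 to 23 with a median of 8.5. C82, C29, C95 and C43 were above that median, C47 was next to it and C13 below, and the stromal range covered all 6. Ccnb2, a mitotic cyclin, was 248 RPKM in C82, 84.02 in C47, 0 in C95, 136 in C43, 142 in C13 and 144 in C29.

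Of 26 G1/S genes 9 were lower and 2 higher, with a median of -0.17 for 6 cells and 0.26 for 4, so the sign of the median turned. It was 0.05 without C13 alone and -0.62 without C95. Mcm4, a subunit of the replicative helicase, was 16.1 RPKM in C82, 79.02 in C47, 0.490 in C95, 67.7 in C43, 3.30 in C13 and 1.42 in C29, against a stromal median of 127. Tyms, thymidylate synthase, went the other way at 34.4 RPKM in C82, 132 in C47, 46.5 in C95, 89.7 in C43, 0.0897 in C13 and 21.6 in C29, against a stromal median of 14.7.

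Of 24 imprinted genes 10 were lower and 1 higher, with a median of -0.61. With the 4 Cdh1-positive cells 8 were lower and 4 higher, beside 6.45% lower and 21% higher over all genes, with a median of -0.17. Without C13 alone the median was -0.39. Igf2r, the receptor that clears Igf2, was 13.6 RPKM in C82, 8.35 in C47, 9.88 in C95, 8.003 in C43, 1.25 in C13 and 16.7 in C29, and the stroma ran from 0.715 to 90.8 RPKM with a median of 29.5. All 6 cells lay below the stromal median. Of 22 immediate early genes 7 were lower and none higher with 6 cells, with a median of -0.56. With the 4 Cdh1-positive cells 5 were higher and 4 lower, beside 21% higher and 6.45% lower over all genes, with a median of -0.05. The median of -0.56 became -0.21 without C13, -0.34 without C29 and -1.0 without C43. Fos, an AP-1 subunit, was 17.2 RPKM in C82, 349 in C47, 333 in C95, 2066 in C43, 0.807 in C13 and 0.849 in C29, so C13 and C29 were below 1 RPKM while C43 exceeded the highest stromal cell at 1435.

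**Figure D5:**
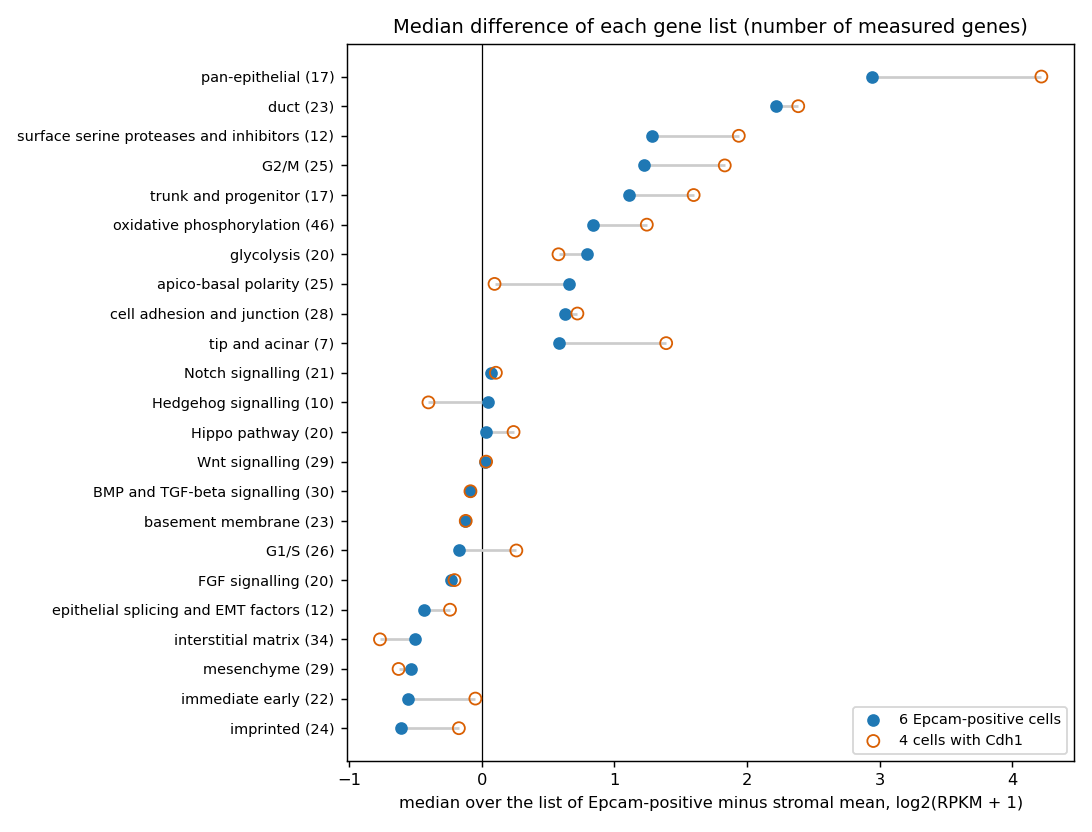
Median over each gene list of the Epcam-positive minus the stromal mean, on the log2(RPKM + 1) scale, with all 6 Epcam-positive cells (filled) and with the 4 Cdh1-positive cells (open). The number of measured genes is in brackets. The pan-epithelial and duct medians lie farthest to the right in both, and the G1/S and Hedgehog medians change side of 0 between the filled and the open symbols.

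Each library carries a pair of index sequences, and cells in the same plate row or column share an index. For some genes that an Epcam-positive cell held at a high level, values above 0 were more frequent in stromal cells sharing an index with that cell, and for others they were not. Cldn6, highest in C47, was above 0 in 3 of 8 stromal cells sharing an index with C47, at most at 0.251 RPKM, and in 0 of 54 others. Upk1b, highest in C13, was above 0 in 4 of 14 sharing cells and in 0 of 48 others. Spp1, highest in C47, was above 0 in 4 of 8 sharing cells and in 2 of 54 others. Serpina6, highest in C82, was above 0 in 4 of 13 sharing cells and in 3 of 49 others. Cpa1, also highest in C82, was above 0 in 10 of 13 sharing cells and in 8 of 49 others. At 1 RPKM it was found in 4 and 6 of them, and its highest value, in the others, was 340 RPKM. Cdh1, highest in C82, was above 0 in 1 of 13 sharing cells and in 5 of 49 others, Ambp in 2 and 8, Wfdc15b in 0 and 2, and Sox9 in 6 and 30. Pdx1, held by C43, was 0 in every stromal cell, sharing or not. Only 19 of the 62 stromal cells share no index with any Epcam-positive cell. The other cells of each comparison therefore include some that share an index with a different Epcam-positive cell, which may hold the same gene.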

How the data were processed

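Cells were captured on a microfluidic device and made into SMARTer cDNA and Nextera XT libraries, per the labels' protocols. CASAVA 1.8.2 and build mm9 are named in the submitters' processing notes, and no aligner or annotation is named in the sources used here. The authors deposited 1 table of 29510 transcript rows, whose values are taken as RPKM. This unit is inferred: the values times GENCODE vM21 transcript lengths fell near whole reads (a median of 77.5% of low values within 0.15), which also gave the depth.

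The transcript row with the highest mean stood for each of 22869 genes. Of these, 13237 were above 0 in at least 3 cells and were compared on the log2(RPKM + 1) scale (pseudocount 1), which understates differences of low genes. The 6 and 62 cells belong to 1 sample, so no p-value was computed. Reads carry no molecular identifiers, a count of 0 was given a limit of 3 counts, and with 81 cells doublets were not called.

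The members, lists and rules were chosen with earlier results of these data known. Named are the 20 genes of largest difference each way (above 0 in at least 50% of cells of the higher class), trait genes at 10 RPKM in a cell, up to 6 genes of each other list and up to 6 leading genes per cell. Serpina6, Habp2, Mt1, Mgll, Cxcr4, Vcan, other list genes, the genes of the shared index and those given as at or near 0 were chosen after their values were seen. Python 3.11.15, numpy 2.4.6 and pandas 2.3.3 were used, and the differences were tested on simulated data. Alternatives covered scaling, pseudocount, filter, transcript summary, class threshold, medians and the cells included; those without C13 and C29, and without C43 too, were added after seeing the data. Results for some genes are not reported here.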

Additional observations from a re-analysis of the deposited data

Results flagged for a closer look

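The mean level of each of 41 gene lists, on the log2(RPKM + 1) scale, was compared among the 6 Epcam-positive cells, and 6 lists had a cell far from the others by Dixon's gap. Chance flags about 1 in 20 such groups. The tip and acinar list had a mean of 1.03 in C82, the highest of the 6, against at most 0.53 in the stromal cells. Its genes at 10 RPKM in C82 included Cpa1 and Dlk1, which 7 and 29 of 62 stromal cells also held at that level. The keratin list had a mean of 2.76 in C43, above the highest stromal mean of 2.21. The endothelial list had a mean of 0.34 in C47, which is near 0 and is carried by Eng. The stromal means of that list ran from 0 to 0.49. The erythroid list had a mean of 0.27 in C43, from Alas2 at 8.62 RPKM, a value worth few reads in that shallow cell. Its stromal means ran from 0 to 0.31. The secretory pathway list was lowest in C13, with a mean of 3.09, within the stromal range of 2.58 to 5.08. The vesicle fusion list was lowest in C13 as well, with a mean of 0.63, where Vamp8, a fusion protein of exocrine cells, was 0.43 RPKM in C13 against 53.7 in C29 and at least 178 in the other 4 cells. C13 held 2673 genes at 1 RPKM, the fewest of the 6 cells, and whether this lowered its list means was not tested.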

How the results depend on the processing

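At a pseudocount of 0.1, 3398 genes were higher and 1764 lower, and at 10, 510 and 119. Without C13, C29 and C43, 1138 were lower. Leaving out 1 cell gave 2072 to 2577 higher and 725 to 959 lower genes, the highest count of higher genes without C13. Classes cut at 20 RPKM left 5 Epcam-positive cells, without C29, and 61 stromal cells.

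Over 23 lists and 20 alternatives, 432 of 460 medians stayed within the spread over cells. The polarity median was 0.43 with classes cut at 20 RPKM, 0 as a difference of medians, 0.47 with rescaled cells, 0.47 with the mean over transcript rows, 0.52 with no filter, 0.92 and 0.22 at pseudocounts of 0.1 and 10, 0.47 against the 19 stromal cells sharing no index, 0.10 without C13 and C29, -0.028 also without C43, and 0.44 to 0.67 with 1 cell left out. The difference of medians gave 0 for FGF, 0 for mesenchyme and -0.026 for epithelial to mesenchymal transition. A pseudocount of 0.1 gave 0.34 for Notch, 0.21 for Wnt, -0.35 for basement membrane, 1.30 for junctions and -1.07 for mesenchyme. The Wnt median was 0.16 with the stricter filter. Without C13 and C29 the Hedgehog median was -0.40 and the tip median 1.39. With 1 cell left out, Notch ranged from -0.0071 to 0.25, Wnt from -0.0081 to 0.18 and mesenchyme from -1.06 (without C47) to -0.43. Medians of the BMP, FGF, Hedgehog, Hippo, Notch, Wnt, basement membrane and G1/S lists, all within 0.25 of 0, moved by over 1.5 times when single cells were left out. Lists farther from 0 shifted as well. The immediate early median went from -0.56 to -0.21 without C13, and the interstitial matrix median from -0.50 to -0.26 without C82. The cause of these shifts was not tested. Medians of the tip, polarity, Wnt, Notch, Hedgehog, Hippo and G1/S lists changed sign under at least 1 alternative, and those of the other 16 lists did not. No paired analysis was possible because the labels give a single group of cells. Depth limits C43 most, where values of a few RPKM rest on single reads. C13 held the fewest genes at 1 RPKM of the Epcam-positive cells, which limits what its low values show.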

Other observations

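Among guidance receptors and ligands, Plxnb2, a plexin receptor for semaphorins, was 82.1 RPKM in C82, 92.7 in C47, 0.0339 in C95, 12.6 in C43, 189 in C13 and 1.35 in C29, a difference of 2.19 on the log2(RPKM + 1) scale, with 15 of 62 stromal cells at 10 RPKM. Epha4, an Eph receptor of mesenchyme and neurons, was 10.2 RPKM in C82, 35.2 in C47, 0.0689 in C95, 0 in C43, 0 in C13 and 2.93 in C29, a difference of -2.13 from stromal values that ran from 0 to 314 RPKM with a median of 22.2. The integrin subunit Itgb5 was 16.3 RPKM in C82, 0.198 in C47, 7.36 in C95, 0 in C43, 0.105 in C13 and 0.0786 in C29, against a stromal median of 22.5, so all 6 cells were below it.

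Fxyd2, a regulator of the sodium pump known from kidney and duct, was 0 RPKM in C82, 53.1 in C47, 0 in C95, 115 in C43, 0 in C13 and 0 in C29, held by C47 and C43 only, with 2 stromal cells at 10 RPKM. Slc12a2, the sodium, potassium and chloride cotransporter, was 36.6 RPKM in C82, 0.198 in C47, 0.911 in C95, 0.367 in C43, 137 in C13 and 27.6 in C29, so it was held by C82, C13 and C29 and not by the cells with Fxyd2. Of 26 ion and water transport genes, 17 were measured, 4 were higher and none lower. Over all genes 15.2% were higher and 5.72% lower. Of 31 measured cilium genes 4 were higher and none lower, a share higher that is below the 15.2% of all genes. Arl13b, a GTPase of the ciliary membrane, was 0.862 RPKM in C82, 88.1 in C47, 63.4 in C95, 0 in C43, 0 in C13 and 0.0726 in C29.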
